A study of Homo sapiens with 6 samples.

Results

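The genes described are 9 components of interferon signaling, namely the receptor chains IFNAR1, IFNAR2, IFNGR1 and IFNGR2, the kinases JAK1, JAK2 and TYK2, and the transcription factors STAT2 and STAT3. They were found by gene symbol, and each matched 1 row of the 60708 genes in the count table. RNA was sequenced from Caki-1 cells, an established human clear cell renal carcinoma line, to compare cells with and without the tumor suppressor VHL. There were 3 samples of vector control (VC) cells, wild-type in genotype. The other 3 samples were of VHL-KO cells, infected with a lentiviral CRISPR vector carrying a guide RNA to VHL. Which vector the sequenced VC cells received is not stated in the methods. Per the methods, knockout cells were selected with puromycin and derived as clones; which guide was used, how many clones were sequenced and whether the VC cells were also cloned were not given in the sources used here, so that an effect of the knockout and a difference between clones cannot be told apart. The VC samples held 31789923, 28463579 and 34881739 reads on genes (replicates 1 to 3), and the VHL-KO samples held 29139722, 22805385 and 22628246.

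Interferons act through pairs of receptor chains. Type I interferons bind IFNAR1 and IFNAR2, whose tails carry the kinases TYK2 and JAK1, and the receptor then activates STAT proteins, among them STAT2, which acts in the nucleus with IRF9. Type II interferon, or interferon gamma, binds IFNGR1 and IFNGR2, which carry JAK1 and JAK2, whereas STAT3 is best known as the factor activated by cytokines of the interleukin-6 family.

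All 9 genes passed the filter of at least 10 reads in any sample, with between 94 and 7919 reads per gene and sample. IFNAR2, IFNGR1, STAT2 and STAT3 were higher in VHL-KO cells, JAK1 was lower, and IFNAR1, IFNGR2, JAK2 and TYK2 did not pass the threshold. The threshold was an adjusted p of 0.05, from the quasi-likelihood test in edgeR after Benjamini-Hochberg correction for all 17401 genes tested. Thus 5 of the 9 genes passed, beside 59.7% of all genes tested, a share so near to it that the count says nothing particular about these genes. By direction, 4 were higher, beside 28.5% of all genes, and 1 was lower, beside 31.2%. With offsets that correct for GC content and transcript length, 5 were higher and 2 lower, beside 5217 and 5258 of the 17401 genes tested. Of the 9 genes, 0 passed it with at least a 2-fold change, beside 26.2% of all genes. IFNAR2 came close at a log2 fold change of 0.97 and was past 2-fold with upper quartile factors (1.08) and without VC replicate 1 (1.01), VC replicate 3 (1.05) or VHL-KO replicate 2 (1.02). Offsets that correct for GC content and transcript length took it to 1.25 and IFNGR1 to 1.01, both past 2-fold. The share of all genes past 2-fold with these offsets is not given here, so nothing particular to the 9 genes can be read from this. The median log2 fold change was 0.10 for the 9 genes and -0.01 for all genes tested. That of the 9 genes turned to -0.10 with library size alone and was 0.21 with upper quartile factors, 0.25 without VC replicate 3 and 0.57 with these offsets, where that of all genes was 0.02. Scaling by library size alone moved the median of all genes to -0.20 and upper quartile factors moved it to 0.10, and differences of that size are relative to these shifts. The 4 genes that were higher and the 1 that was lower kept their direction and their side of the threshold under both. In RNA from bulk cells, fewer cells with a transcript and less of it in each cell cannot be told apart.

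**Figure D1:**
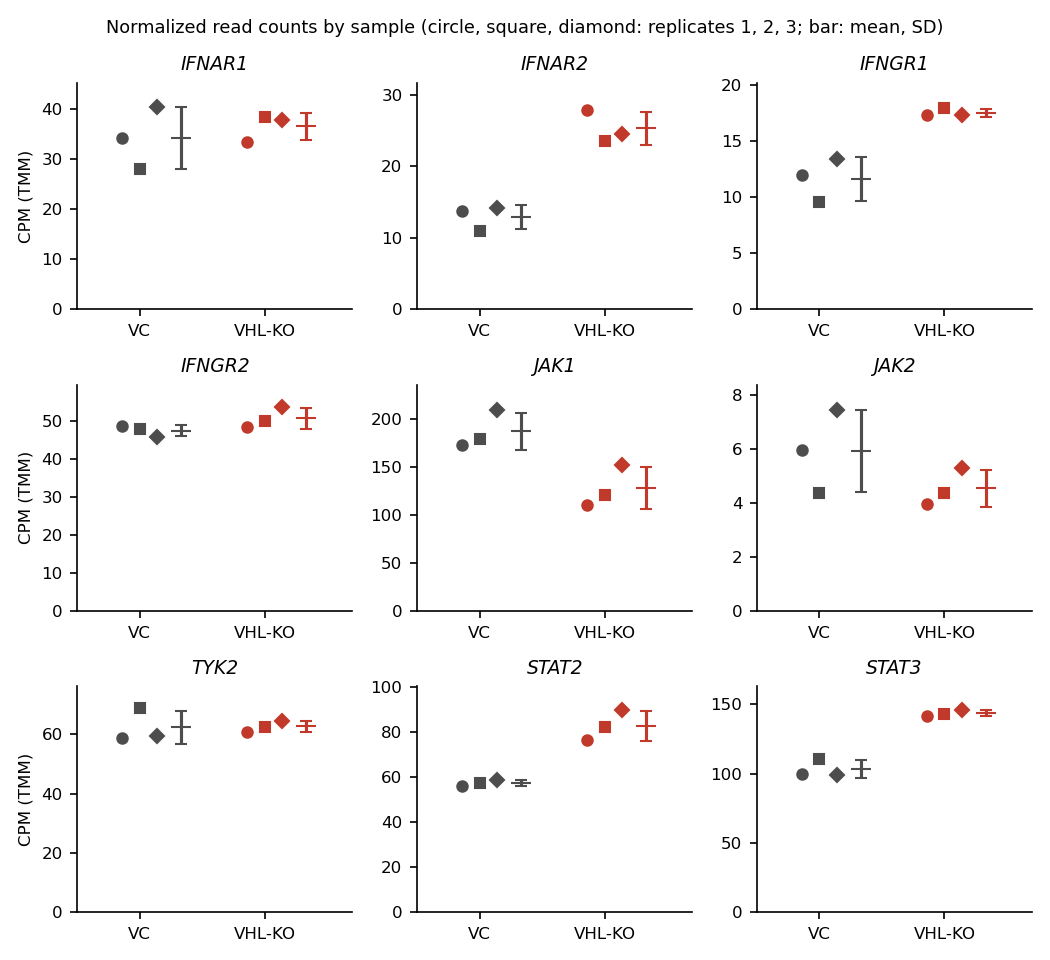
Normalized read counts (CPM with TMM factors, axes from 0) of the 9 genes in each of the 3 VC and 3 VHL-KO samples, with the mean and SD of each group beside the points. IFNAR2, IFNGR1, STAT2 and STAT3 lay higher and JAK1 lower in all 3 VHL-KO samples than in any VC sample, and the groups overlapped for the other 4 genes.

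The edited gene was examined first. VHL, on chromosome 3 of GRCh38 (chr3:10141778-10153667), encodes the part of a ubiquitin ligase that recognizes HIF proteins. It had 42.6, 37.8 and 40.1 CPM (counts scaled to a common depth with edgeR's TMM factors) in the VC samples and 34.8, 30.4 and 30.5 CPM in the VHL-KO samples. The VHL-KO samples were all lower than the VC samples, and reads were present in each of them. Of the exonic bases of VHL, 23.5% are shared with a gene on the opposite strand, and how reads there were assigned is not known. Its log2 fold change was -0.33 (SE 0.11, edgeR adjusted p = 0.0109). This call was lost when VC replicate 1 (-0.28) or VHL-KO replicate 2 (-0.30) was left out and with upper quartile factors (-0.22). With offsets that take out of each library the dependence of counts on GC content and transcript length, the log2 fold change of VHL was -0.01 (edgeR adjusted p = 0.940, the alternatives spanning 2.93e-04 to 0.940). Of 15 HIF targets, 13 were higher in VHL-KO cells and 2 were lower, beside 28.5% of all genes higher and 31.2% lower. The 2 were EGLN3 and EGLN1, which encode oxygen-sensing hydroxylases, and the median log2 fold change of the 15 was 1.53. EGLN3 (-1.26) had few reads, 69, 41 and 67 in the VC samples and 10, 20 and 19 in the VHL-KO samples. EGLN1 (-0.41) shares 55.8% of its exonic bases with another gene on the same strand and was at -0.09 with the GC and length offsets (edgeR adjusted p = 0.581, the alternatives spanning 0.00353 to 0.598). Its call was lost in 7 of 15 alternatives, among them the omission of replicate 2 (-0.35) or 3 (-0.31) of VC and of replicate 1 (-0.34) or 3 (-0.40) of VHL-KO. NDRG1, a gene long used as a marker of hypoxia, had 12.1, 11.1 and 11.7 CPM in the VC samples and 729, 774 and 781 CPM in the VHL-KO samples, a log2 fold change of 6.03 (SE 0.11). CA12, ADM and VEGFA had log2 fold changes of 3.94, 3.55 and 2.48. CA9, a carbonic anhydrase, had 2 reads over the VC samples and 768 over the VHL-KO samples, a ratio of 562 per unit of depth (95% interval 155 to 4646, exact, for counting error alone).

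The label of the cells was set against markers of cell type. Of 9 renal epithelial genes, 8 had reads, and their summed level was 1713, 1927 and 1562 CPM in the VC samples and 2389, 2312 and 2324 CPM in the VHL-KO samples. KRT8 was the most abundant of them, and PAX2 had 0 reads. Among the 8 genes, 4 were higher in VHL-KO cells, 2 were lower (LHX1 and EPCAM) and 2 did not pass the threshold. The shares of all genes tested were 28.5% higher and 31.2% lower. Of 9 leukocyte genes, 5 had any read and their sum was between 1.37 and 1.78 CPM in VC and between 3.99 and 5.52 CPM in VHL-KO samples, most of it CD14, while CD3E, CD3D, MS4A1 and NKG7 had 0 reads in all 6 samples. The 4 endothelial genes summed to at most 0.237 CPM in VC and 0.711 CPM in VHL-KO samples. KDR had 4, 0 and 9 reads in the VC samples and 0 in every VHL-KO sample, and PECAM1 had 1, 5 and 0 reads in the VC samples and 14, 7 and 9 in the VHL-KO samples. The 5 fibroblast genes summed to between 37.2 and 47.3 CPM in VC and were lower in every VHL-KO sample, down to 25.5 CPM, led by COL1A1, and COL3A1 had 0 reads. These sums differed between the groups, and their part in the results below was not tested.

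Promoters of members that rose or fell are shown because they let the motifs of interferon and HIF signaling be read beside the measured changes. RefSeq promoters on GRCh38.p14, from 250 bases before to 50 bases after a start site, were found for 8 of the 9 genes, 15 promoters in all, and not for IFNAR2. The 4 shown belong to STAT2 (chr12:56360058-56360357), STAT3 (chr17:42388393-42388692), IFNGR1 (chr6:137219336-137219635) and JAK1 (chr1:64966500-64966799), all on the minus strand and each at the start of the gene's canonical transcript in GENCODE, written 5′ to 3′ along the gene with matches to a motif in capitals.
STAT2 promoter: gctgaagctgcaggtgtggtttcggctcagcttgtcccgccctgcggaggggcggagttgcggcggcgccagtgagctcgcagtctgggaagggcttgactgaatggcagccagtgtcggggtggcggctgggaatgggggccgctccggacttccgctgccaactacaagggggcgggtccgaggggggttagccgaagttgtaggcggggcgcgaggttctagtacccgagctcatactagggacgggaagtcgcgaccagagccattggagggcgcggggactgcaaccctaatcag
STAT3 promoter: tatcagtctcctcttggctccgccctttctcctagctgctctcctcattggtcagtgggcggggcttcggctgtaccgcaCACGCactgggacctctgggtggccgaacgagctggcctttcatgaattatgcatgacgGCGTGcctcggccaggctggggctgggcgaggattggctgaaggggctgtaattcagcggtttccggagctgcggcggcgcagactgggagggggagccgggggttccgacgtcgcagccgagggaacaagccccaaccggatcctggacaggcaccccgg
IFNGR1 promoter: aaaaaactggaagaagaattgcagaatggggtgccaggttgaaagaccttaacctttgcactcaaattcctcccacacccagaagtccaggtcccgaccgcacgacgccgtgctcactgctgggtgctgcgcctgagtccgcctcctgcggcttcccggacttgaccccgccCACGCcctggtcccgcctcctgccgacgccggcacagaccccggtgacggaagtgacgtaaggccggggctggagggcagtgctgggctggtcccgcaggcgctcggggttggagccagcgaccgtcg
JAK1 promoter: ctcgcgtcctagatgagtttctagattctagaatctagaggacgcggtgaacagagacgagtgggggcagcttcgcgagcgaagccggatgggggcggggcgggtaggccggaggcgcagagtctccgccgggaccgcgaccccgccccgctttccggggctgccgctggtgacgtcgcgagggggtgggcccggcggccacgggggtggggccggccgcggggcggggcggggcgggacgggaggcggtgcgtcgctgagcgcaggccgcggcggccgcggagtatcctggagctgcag
Both strands were searched for the gamma-activated sequence TTCNNNGAA, bound by STAT dimers, for the interferon-stimulated response element (a pair of GAAA with 2 bases between them), bound by STAT2 with its partners, and for the core of the hypoxia response element, ACGTG or GCGTG. The first was in 0 of the 15 promoters and in 7.66% of 35116 promoters of all genes, and the second was in 0 of 15 and in 3.57% of all. The hypoxia core was in 10 of the 15 and in 48.4% of all promoters. Of these 10 promoters, 4 belong to JAK2, and 2 of those overlap and share a match. The STAT3 promoter held the hypoxia core at 170 and at 111 bases before the start and the IFNGR1 promoter at 78 bases before it, while the STAT2 and JAK1 promoters shown held none. A promoter of JAK1 farther upstream held 3, and matches of the hypoxia core overlapped each other there (139 and 135 bases before the start) and in a promoter of IFNAR1 (113 and 109 bases before it). These are matches of letters only, and binding was not measured.

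For the type I receptor, IFNAR2 rose and IFNAR1 did not pass the test. IFNAR2, the chain that binds interferon with high affinity, is at chr21:33205282-33265675 on the plus strand. It had 13.7, 11.0 and 14.1 CPM in the VC samples and 27.9, 23.5 and 24.5 CPM in the VHL-KO samples. All 3 VHL-KO samples lay above every VC sample, and VHL-KO replicate 1 was the highest. The log2 fold change was 0.97 (95% interval 0.69 to 1.24, SE 0.13), a 1.95-fold difference and the largest rise among the 9 genes (edgeR adjusted p = 9.6e-07). It stayed past the threshold in all 15 alternatives, with a log2 fold change between 0.77 and 1.25. Of its exonic bases, 14.7% are shared with the readthrough gene IFNAR2-IL10RB on the same strand and others with IL10RB-DT on the opposite strand, and how the authors' counting assigned shared reads is not given in the sources used here. The row of the readthrough gene held 5, 5 and 5 reads in the VC samples and 5, 3 and 25 in the VHL-KO samples, where IFNAR2 itself had between 327 and 744 reads. IL10RB-DT had between 4 and 15 reads in any sample.

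IFNAR1, the chain that carries TYK2, lies downstream in the same cluster (chr21:33324387-33359864). It had 34.3, 28.0 and 40.5 CPM in the VC samples and 33.5, 38.5 and 37.8 CPM in the VHL-KO samples. The VHL-KO samples all fell within the range of the VC samples, whose replicates 2 and 3 were the lowest and the highest of the 6. IFNAR1 differed by 0.09 on the log2 scale (95% interval -0.16 to 0.35, edgeR adjusted p = 0.533). Its direction turned with library size alone (-0.10) and without VC replicate 2 (-0.02), whereas the GC and length offsets took it to 0.57 and past the threshold (adjusted p = 4.0e-06, the alternatives spanning 1.4e-06 to 0.911).

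The ratio of reads on the 2 chains in a sample does not depend on library scaling. Reads on IFNAR2 divided by reads on IFNAR1 gave 0.401, 0.394 and 0.348 in the VC samples and 0.831, 0.611 and 0.648 in the VHL-KO samples. Every VHL-KO ratio was above every VC ratio, a log2 difference of 0.86. This ratio, and those of the other receptor partners below, were chosen after their values were seen and were not tested. Leaving out each sample in turn gave log2 differences from 0.73 to 0.95, and the GC and length offsets gave 0.68. Per kilobase of canonical transcript, the chains were at 3.18 ± 0.415 (IFNAR2) and 5.64 ± 1.03 (IFNAR1) CPM per kb in VC cells and at 6.21 ± 0.556 and 6.02 ± 0.444 CPM per kb in VHL-KO cells, as mean ± SD of 3 samples. The 2 chains were thus at separate levels in VC cells and at overlapping levels in VHL-KO cells.

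For the type II receptor, IFNGR1 rose and IFNGR2 did not pass the test. IFNGR1, which binds interferon gamma and carries JAK1, is on chromosome 6 (chr6:137197483-137219449, minus strand) and shares no exonic base with another gene. It had 12.0, 9.52 and 13.4 CPM in the VC samples and 17.3, 17.9 and 17.3 CPM in the VHL-KO samples. The VHL-KO samples were all higher and lay closer together than the VC samples. IFNGR1 rose by a log2 fold change of 0.59 (95% interval 0.29 to 0.88, SE 0.14, edgeR adjusted p = 0.00106). Library size alone gave 0.39 and the GC and length offsets gave 1.01, and it was past the threshold in all 15 alternatives (adjusted p from 1.0e-08 to 0.0305). IFNGR2, the chain that carries JAK2, ends the cluster on chromosome 21 (chr21:33403413-33479348). It had 48.8, 47.9 and 45.8 CPM in the VC samples and 48.4, 50.1 and 53.8 CPM in the VHL-KO samples. The groups overlapped through VC replicate 1 and VHL-KO replicate 1. Its log2 fold change was 0.10 (95% interval -0.11 to 0.30, edgeR adjusted p = 0.416) and turned to -0.10 with library size alone. TMEM50B lies on the opposite strand over 15.0% of its exonic bases. Reads on IFNGR1 divided by reads on IFNGR2 were 0.246, 0.199 and 0.293 in the VC samples and 0.357, 0.357 and 0.322 in the VHL-KO samples. These ratios did not overlap between the groups, with a log2 difference of 0.51, or 0.98 with the GC and length offsets.

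The chromosome 21 cluster holds IFNAR2, IL10RB, IFNAR1 and IFNGR2 in this order on the plus strand within 274 kb. IL10RB, a chain shared by the receptors of interferon lambda and interleukin-10, is the neighbor between both type I chains. It had 0.937, 0.639 and 0.685 CPM in the VC samples and 1.27, 1.39 and 1.83 CPM in the VHL-KO samples. All VHL-KO samples were higher, at counts of 19 to 39 reads in any sample. IL10RB rose by 0.98 on the log2 scale (SE 0.34, edgeR adjusted p = 0.0165), but 21.6% of its exonic bases are shared on the same strand, and the adjusted p passed 0.05 with library size alone and when replicate 2 or 3 of VC or replicate 3 of VHL-KO was omitted (up to 0.0603). Whether IFNAR2 and IL10RB differed more than IFNAR1 and IFNGR2 was not tested. The promoter of IL10RB held the gamma-activated sequence TTCCCGGAA 11 bases after the start, a motif found in 7.66% of 35116 promoters of all genes. The promoters of JAK3, STAT4, STAT5A, STAT5B and STAT6, searched in the same way, held no match to it.

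Of the kinases, JAK1 was lower and the other 2 did not pass the test. JAK1, which serves both receptors and many other cytokine receptors, is on chromosome 1 (chr1:64833223-65067754, minus strand). It had 173, 179 and 209 CPM in the VC samples and 109.7, 121 and 152 CPM in the VHL-KO samples. All VHL-KO samples were lower than every VC sample, and replicate 3 was the highest of each group. This was a log2 fold change of -0.55 (95% interval -0.77 to -0.32, SE 0.11, edgeR adjusted p = 1.28e-04). JAK1 stayed lower and past the threshold in all 15 alternatives, from -0.74 (library size alone) to -0.24 (GC and length offsets; adjusted p = 0.00987, the alternatives spanning 2.3e-09 to 0.00987).

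JAK2, the partner of IFNGR2 and of hormone-like cytokine receptors, is at chr9:4984390-5129948 on the plus strand and had the fewest reads of the 9 genes. It had 5.95, 4.38 and 7.43 CPM in the VC samples and 3.97, 4.36 and 5.30 CPM in the VHL-KO samples. The groups overlapped, with VC replicate 3 the highest and VHL-KO replicate 1 the lowest. JAK2 differed by -0.39 on the log2 scale (95% interval -0.81 to 0.03, edgeR adjusted p = 0.101). It passed the threshold without VC replicate 2 (-0.55, adjusted p = 0.0163) and with library size alone (-0.59, adjusted p = 0.0236), was at -0.17 without VC replicate 3, and turned to 0.25 with the GC and length offsets (adjusted p = 0.179, the alternatives spanning 0.0163 to 0.503).

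TYK2, the kinase of IFNAR1, is at chr19:10350533-10380608 on the minus strand. It had 58.7, 68.7 and 59.5 CPM in the VC samples and 60.8, 62.4 and 64.6 CPM in the VHL-KO samples. The VHL-KO samples all lay between the lowest and the highest VC samples. TYK2 differed by 0.01 on the log2 scale (95% interval -0.20 to 0.21, edgeR adjusted p = 0.955). The GC and length offsets took it to -0.25 and past the threshold (adjusted p = 0.00166, the alternatives spanning 0.00126 to 0.950), and its sign also turned with library size alone, without the filter and when replicate 1 or 3 of VC or replicate 3 of VHL-KO was left out. Reads on JAK1 divided by reads on TYK2, the 2 kinases of the type I receptor, were 2.95, 2.60 and 3.50 in the VC samples and 1.80, 1.95 and 2.36 in the VHL-KO samples. These ratios did not overlap and had a log2 difference of -0.57, but with the GC and length offsets the difference was 0.01. The ratio of JAK1 to JAK2, the kinases of the type II receptor, was between 28.1 and 40.8 in VC and between 27.6 and 28.7 in VHL-KO samples, with overlap.

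Both STATs were higher in VHL-KO cells. STAT2, a factor of the type I response, is at chr12:56341597-56360203 on the minus strand. It had 56.1, 57.4 and 58.9 CPM in the VC samples and 76.3, 82.1 and 89.6 CPM in the VHL-KO samples. The VC samples lay within 3 CPM of each other and every VHL-KO sample was above them. STAT2 rose by a log2 fold change of 0.52 (95% interval 0.33 to 0.72, SE 0.10, edgeR adjusted p = 4.9e-05). It was 0.33 with library size alone and passed the threshold in all 15 alternatives.

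STAT3, whose targets include its own inhibitor SOCS3, is at chr17:42313324-42388540 on the minus strand. It had between 99.1 and 111 CPM in the VC samples (3413, 3292 and 3761 reads) and 142, 143 and 146 CPM in the VHL-KO samples (3799, 3084 and 3108 reads). All VHL-KO samples were higher and differed little among themselves, while VC replicate 2 was the highest of its group. STAT3 rose by a log2 fold change of 0.48 (95% interval 0.29 to 0.66, SE 0.09, edgeR adjusted p = 6.8e-05), from 0.28 (library size alone) to 0.67 (GC and length offsets) and past the threshold in all 15 alternatives. The groups did not overlap for 5 of the 9 genes (IFNAR2, IFNGR1, JAK1, STAT2 and STAT3), beside 64.7% of all genes tested.

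**Figure D2:**
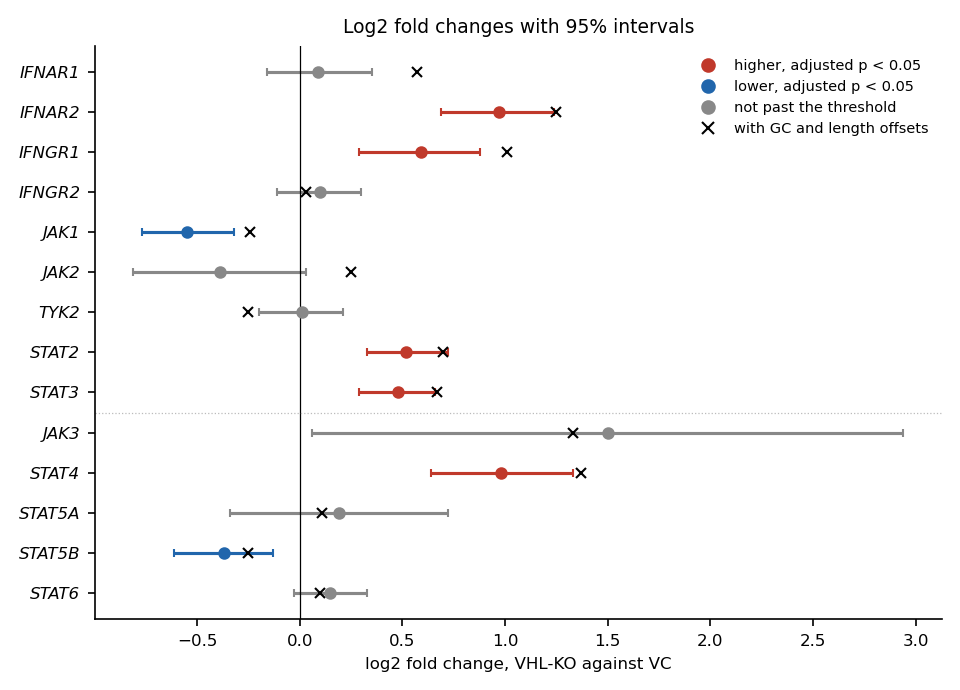
Log2 fold changes of VHL-KO against VC with 95% intervals for the 9 genes (above the dotted line) and 5 other JAK and STAT genes, colored by direction where the adjusted p was under 0.05; crosses are the values with GC and length offsets. IFNAR2 had the highest value of the 9 genes at 0.97 and JAK1 the lowest at -0.55, and with the offsets JAK2 turned from -0.39 to 0.25 and TYK2 from 0.01 to -0.25.

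Fold changes also followed the base composition of the transcripts. Across 12131 genes averaging 50 or more normalized counts, the median log2 fold change was -0.57 for transcripts with 35 to 40% GC, -0.40 from 40 to 45%, -0.16 from 45 to 50%, 0.02 from 50 to 55% and 0.45 at 60% or more. JAK2 (36.7% GC) and IFNGR1 (39.4%) fall in the first of these ranges, and IFNAR1 (42.0%) in the second. JAK2 at -0.39 and IFNAR1 at 0.09 were above the medians of their ranges, and IFNGR1 at 0.59 was far above its own. JAK1 (46.4%) and IFNAR2 (47.4%) share the range from 45 to 50%, whose median of -0.16 lay between their values of -0.55 and 0.97. IFNGR2 (50.4%), STAT2 (50.7%) and STAT3 (just above 50%) fall in the fourth, where the median was near 0, and TYK2 (61.4%) at 0.01 was below the median of the last. Whether the trend with GC content arose in the cells or in the libraries was not tested, and the offsets remove both.

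**Figure D3:**
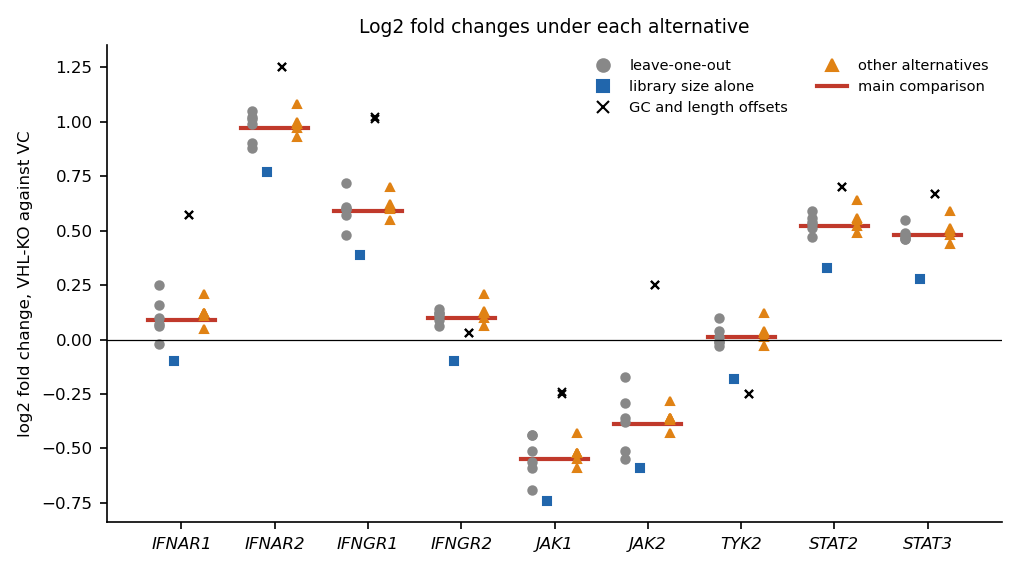
Log2 fold changes of the 9 genes in the main comparison (red lines) and in each of the 15 alternatives (points). IFNAR2, IFNGR1, STAT2 and STAT3 stayed above 0 and JAK1 below 0 in every alternative, while IFNAR1, IFNGR2, JAK2 and TYK2 each crossed 0 in at least 1.

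Levels were compared between genes per kilobase of canonical transcript. In VC cells the order from high to low was JAK1 (36.7 ± 3.78 CPM per kb), IFNGR2 (27.9 ± 0.914), STAT3 (20.1 to 22.5 in its 3 samples), TYK2 (14.7 ± 1.31), STAT2 (12.7 to 13.4), IFNAR1 (5.64 ± 1.03), IFNGR1 (5.61 ± 0.947), IFNAR2 (3.18 ± 0.415) and JAK2 (0.842 ± 0.217) (mean ± SD, n = 3). Each gene was separate from the next in all samples, except that IFNAR1 and IFNGR1 overlapped. In VHL-KO cells the order was IFNGR2 (29.9 ± 1.60 CPM per kb), STAT3 (29.2 ± 0.382), JAK1 (25.1 ± 4.32), STAT2 (18.8 ± 1.52), TYK2 (14.8 ± 0.448), IFNGR1 (8.44 ± 0.164), IFNAR2 (6.21 ± 0.556), IFNAR1 (6.02 ± 0.444) and JAK2 (0.647 ± 0.0975). There IFNGR2, STAT3 and JAK1 formed a run of overlapping neighbors, and IFNAR2 overlapped IFNAR1. JAK1 thus went from the highest level, separate from all others, to a range that overlapped those of IFNGR2 and STAT3, and STAT2 passed TYK2. The overlap of JAK1 came from VHL-KO replicate 3 alone. JAK1 was at 21.5, 23.9 and 29.9 CPM per kb in the VHL-KO samples, where IFNGR2 and STAT3 were at least at 28.5 and 28.9. In both groups IFNGR2 was above its partner IFNGR1, and JAK2 was the lowest of the 9 genes.

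**Figure D4:**
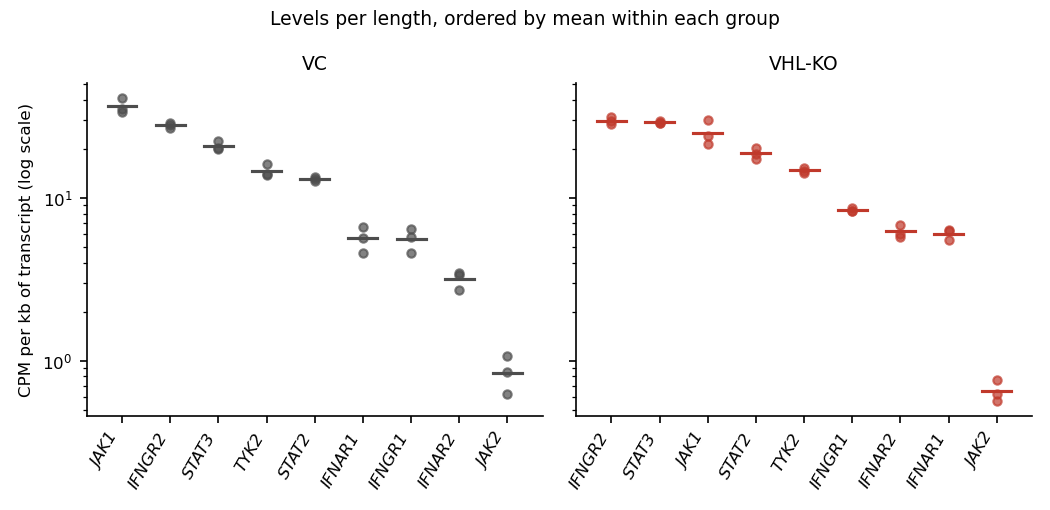
Levels of the 9 genes in CPM per kilobase of canonical transcript (log axis) in the 3 VC samples (left) and the 3 VHL-KO samples (right), ordered by the mean (line) in each group. JAK1 was the first in VC cells at 36.7 and below IFNGR2 and STAT3 in VHL-KO cells at 25.1, and JAK2 was last in both groups at 0.842 and 0.647.

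The genes most like IFNAR2 and JAK1 over the 6 samples were found by the Euclidean distance between mean-centered log2 CPM, among the 10906 genes averaging 100 or more normalized counts and with reads in every sample. Nearest to IFNAR2 were PGRMC2 (distance 0.141, log2 fold change 1.05), MT-RNR2 (0.159, 0.87) and ST3GAL6 (0.159, 0.92). Nearest to JAK1 were ADAMTS1 (distance 0.101, log2 fold change -0.55), MSL2 (0.107, -0.58) and RHBDD1 (0.129, -0.49). None of these 6 genes is a receptor chain, a JAK or a STAT. The distance includes the difference between the groups, so that near genes have similar fold changes by construction.

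Among 5 other JAK and STAT genes, 1 was higher (STAT4), 1 was lower (STAT5B) and 3 did not pass the threshold, beside 28.5% of all genes higher and 31.2% lower. STAT4, best known from lymphocytes, had 4.39, 4.75 and 4.87 CPM in the VC samples and 9.36, 8.25 and 10.1 CPM in the VHL-KO samples, a log2 fold change of 0.98 (SE 0.17, edgeR adjusted p = 1.8e-05). STAT5B, on chromosome 17 beyond STAT5A as seen from STAT3, had 31.9, 36.9 and 32.4 CPM in the VC samples and 23.7, 28.4 and 26.1 CPM in the VHL-KO samples, a log2 fold change of -0.37 (SE 0.12, edgeR adjusted p = 0.00758). Its call was lost with upper quartile factors and without VHL-KO replicate 1 (adjusted p up to 0.0645). STAT5A (0.19), which lies between STAT5B and STAT3, and STAT6 (0.15) did not pass the threshold, and JAK3 had between 3 and 17 reads in any sample. STAT6 passed it without VC replicate 2 (0.23), JAK3 passed it without VHL-KO replicate 2 (1.86), and both did with upper quartile factors.

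IRF9, which binds DNA together with STAT2, had 0.469, 0.236 and 0.421 CPM in the VC samples and 1.24, 1.02 and 0.797 CPM in the VHL-KO samples. All VHL-KO samples were higher, but the row held between 7 and 33 reads and 23.9% of its exonic bases are shared with another gene on the same strand. IRF9 rose by 1.42 on the log2 scale (SE 0.45, edgeR adjusted p = 0.00824). Of 7 chains of the interferon lambda and interleukin-10 receptor family, 5 were tested and 2 were higher, IL10RB and IFNLR1, beside 28.5% of all genes. IFNLR1 had 0, 4 and 1 reads in the VC samples and 10, 12 and 3 in the VHL-KO samples, a log2 fold change of 2.73 that was 4.33 without VC replicate 2. Its call was lost when replicate 1 or 3 of VC or replicate 2 of VHL-KO was left out (adjusted p up to 0.0869). IL20RA, IL20RB and IL22RA1 did not pass the threshold, IL10RA had at most 6 reads and IL22RA2 had 0.

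Ligands of these receptors were close to the limit of detection. Of 21 interferon genes, 17 had 0 reads in all 6 samples and 1 was tested. A count of 0 allows up to 3 reads, for counting error alone, which is 0.079 CPM in the deepest and 0.141 CPM in the shallowest sample. The gene tested was IFNE, with 13, 16 and 22 reads in the VC samples and 32, 12 and 36 in the VHL-KO samples. These samples overlapped through VHL-KO replicate 2, and the log2 fold change was 1.19 (SE 0.43, edgeR adjusted p = 0.0209).

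Of 18 inhibitors of JAK and STAT signaling, 3 were higher, 9 were lower and 6 did not pass the threshold, beside 28.5% of all genes higher and 31.2% lower. Their median log2 fold change was -0.43, and that of all genes -0.01. PTPN11, a phosphatase, had 109, 104 and 138 CPM in the VC samples and 29.2, 35.5 and 40.7 CPM in the VHL-KO samples, a log2 fold change of -1.74 (SE 0.12, edgeR adjusted p = 1.3e-11). SOCS2, SH2B3 and SOCS6 followed at -1.61, -1.38 and -1.19, and SOCS6 was at -0.56 with the GC and length offsets. SOCS1, which blocks JAK1, JAK2 and TYK2, was higher at 1.11 (SE 0.22, edgeR adjusted p = 1.07e-04). It had 2.69, 2.42 and 1.71 CPM in the VC samples and 5.62, 4.54 and 4.50 CPM in the VHL-KO samples. That call was lost with the GC and length offsets, where its log2 fold change was 0.35 (adjusted p = 0.108, the alternatives spanning 1.1e-05 to 0.109). The median of the inhibitors was -0.17 with these offsets.

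Of 22 targets of STAT3, 18 were tested, and 10 were higher, 4 were lower and 4 did not pass, with a median log2 fold change of 0.64, again beside 28.5% of all genes higher and 31.2% lower. BCL6 (1.64), CEBPD, TIMP1 (1.47) and CCND1 (1.07) rose, CEBPD being at 0.75 and TIMP1 at 0.86 with the GC and length offsets, and BIRC5, a survival factor of dividing cells, fell by 1.30 on the log2 scale. These offsets took the median of the list to 0.13. SOCS3, the inhibitor induced by STAT3, did not pass the threshold (0.14, edgeR adjusted p = 0.270) and turned to -0.05 with library size alone and to -0.14 with the offsets. Of 44 type I targets, 40 were tested, and 11 were higher, 10 were lower and 19 did not pass, with a median of 0.01. RTP4 (2.41) and IRF7 (1.49) were the largest rises and PLSCR1 (-1.51), OAS3 (-1.47) and IFI44L (-1.39) the largest falls among those averaging 50 or more normalized counts. IRF7 was at 0.89 and IFI44L at -0.76 with the GC and length offsets. The median of the type I list turned to -0.18 with library size alone and to -0.08 without VC replicate 2, and was 0.13 without VC replicate 3 and with upper quartile factors. Of 22 type II targets, 17 were tested, with 6 higher, 4 lower and 7 not past the threshold and a median of 0.21, which library size alone took to 0.01, upper quartile factors to 0.32 and the GC and length offsets to 0.12. In neither list was the share past the threshold above the 59.7% of all genes. GBP2 (2.49), HLA-DPA1 (1.22, or 0.76 without VHL-KO replicate 3) and HLA-DMA (1.19) were higher, SOCS1 is in this list too, and GBP1 was lower (-1.41). The shares that passed were not set against other lists by a test.

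**Figure D5:**
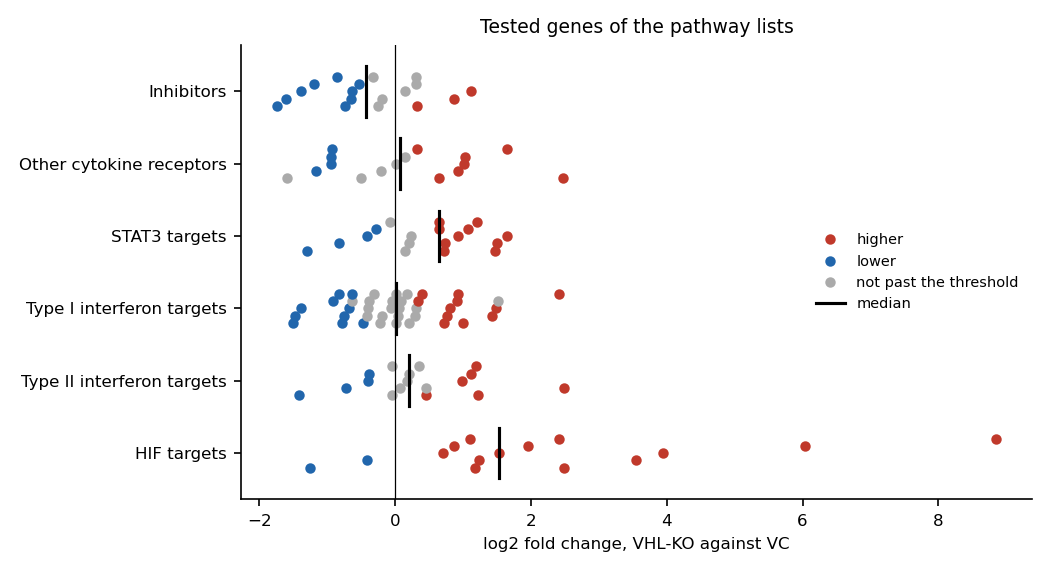
Log2 fold changes of VHL-KO against VC for the tested genes of 6 lists (points, colored where the adjusted p was under 0.05) with the median of each list (black line). The median was -0.43 for the inhibitors, 0.64 for STAT3 targets, 0.01 for type I (-0.18 with library size alone) and 0.21 for type II interferon targets and 1.53 for HIF targets, whose point farthest right is CA9 with only 2 reads over the VC samples.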

How the data were processed

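Per the labels, total RNA of 3 VC and 3 VHL-KO samples was sequenced by Illumina NovaSeq protocols. Each value deposited by the authors is a raw count for 1 gene and 1 sample, which their notes trace to Trim Galore, cutadapt, STAR, SAMtools and HTSeq on GRCh38.p13. Annotation release, strandedness, counting mode and tool versions are not given in the sources used here.

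VHL-KO was compared with VC in edgeR 4.0.16 under R 4.3.3, over 17401 genes that reached 10 reads in any sample, with TMM factors and a two-sided quasi-likelihood test. P-values were adjusted by Benjamini-Hochberg over all of these genes with a threshold of 0.05. The procedure was tested on simulated data, but no outcome of that is given here and no result rests on it. Each SE is the size of the log2 fold change over the root of its F statistic. Nothing in the labels says that samples were separate cultures, so p-values measure only the spread between these samples. No sample was a copy of another in its group (chi-square per degree of freedom 6.03 to 31.9).

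Positions, transcript lengths and GC percentages were taken from GENCODE 44, which held 17355 of the tested genes, and promoters from RefSeq on GRCh38.p14. Members and lists were chosen with earlier results of these data known. Genes named are the members, VHL, 5 other JAKs and STATs, the lambda and interleukin-10 receptor chains, IRF9 and the chromosome 21 neighbors. Also named are the genes nearest in profile to IFNAR2 and JAK1. From every other list at most 5 are named, passing the threshold with the greatest absolute change and averaging 50 or more normalized counts. IFNE, EGLN1, EGLN3, SOCS3, IL6ST and the single cell type markers were chosen after their values were seen, as were the ratios between receptor partners. Alternatives were RLE and upper quartile factors, library size alone, a looser and a stricter filter, DESeq2 1.42.0, each sample left out, the replicate number as a block, and GC and length offsets from splines with 5 degrees of freedom, alone and with the block. Plots were made in matplotlib 3.10.9 (Python 3.11.15).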

Additional observations from a re-analysis of the deposited data

How the results depend on the processing

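Of 135 values (the log2 fold changes of 9 genes under 15 alternatives), 119 kept their direction and their side of the threshold, 4 passed it in the same direction and 12 turned in direction. IFNAR2, IFNGR1, STAT2, STAT3 and JAK1 kept direction and call in every alternative. With library size alone, which moves the median of all genes to -0.20, the log2 fold change was -0.10 for IFNAR1, -0.10 for IFNGR2, -0.18 for TYK2, -0.001 for STAT5A and -0.04 for STAT6, the median of the 9 genes was -0.10, and 2 of them were called lower. With GC and length offsets, without and with the replicate block, JAK2 was at 0.25 and TYK2 at -0.25 in both. The median of the 9 genes was at 0.57 in both, and 5 genes were called higher and 2 lower in both. With upper quartile factors that median was 0.21, and with no filter beyond 1 count TYK2 was at -0.03. Leaving out each sample in turn gave 1 to 2 genes called lower (2 without VC replicate 2), a median of the 9 genes from 0.07 to 0.25, log2 fold changes of IFNAR1 from -0.02 to 0.25 and of TYK2 from -0.03 to 0.10. Among the other genes, SOCS3 turned to -0.05 with library size alone and to -0.14 with the offsets, without and with the block. IL20RA turned to 0.26 with the offsets and 0.32 with offsets and block, IL20RB to 0.07 with upper quartile factors, and leaving out each sample gave -0.45 to 0.23 for IL20RA and -0.33 to 0.15 for IL20RB. The cause was not tested.

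Of the genes called, 47.7% were higher (4958 higher, 5436 lower); with library size alone it was 35.8% (3764 higher, 6737 lower), and upper quartile factors turned the majority (5712 higher, 4668 lower). Whether the replicate numbers pair the samples could not be settled. Correlations of deviations from the group means across 12115 genes were 0.151, -0.0897 and 0.055 for same-numbered samples. For samples with different numbers they ran from -0.181 to 0.0661. With 3 samples per group, such values cannot decide it. With the replicate block alone, 10284 genes were called, 4847 higher and 5437 lower, with 4 of the 9 genes higher and 1 lower. Depth limits JAK3, IFNLR1, IL10RB, IRF9 and the interferon genes, which had few reads.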

Other observations

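Of 31 receptor genes of other cytokines that signal through JAKs, 16 were tested, and 7 were higher, 4 were lower and 5 did not pass the threshold, beside 28.5% of all genes higher and 31.2% lower, with a median log2 fold change of 0.07 beside -0.01 for all genes. IL21R, the receptor chain of interleukin-21, had 0.703, 0.875 and 0.711 CPM in the VC samples and 5.09, 3.20 and 4.32 CPM in the VHL-KO samples, a log2 fold change of 2.47 (SE 0.26, edgeR adjusted p = 1.8e-08), with 23.3% of its exonic bases shared with a gene on the opposite strand. IL6R, which binds interleukin-6, had 2.08, 2.25 and 2.61 CPM in the VC samples and 7.26, 7.88 and 6.61 CPM in the VHL-KO samples. All VHL-KO samples were higher, with a log2 fold change of 1.64 (SE 0.19, edgeR adjusted p = 8.0e-08). LEPR (1.03) and IL11RA (1.01, with 32.5% of exonic bases shared on the same strand) were higher too, and IL7R was lower (-1.16). With the GC and length offsets IL7R was at -0.64, IL11RA at 0.55 and LEPR at 1.63. IL6ST, the signaling chain that partners IL6R, was lower at -0.93 (edgeR adjusted p = 7.7e-05), or at -0.29 with the offsets and -0.58 without VC replicate 3, and was named after its value was seen. It had 31.9, 23.6 and 49.3 CPM in the VC samples and 17.0, 21.1 and 17.0 CPM in the VHL-KO samples. Library size alone took the median of the 16 tested genes to -0.12, and the offsets took it to 0.29. It was 0.18 with upper quartile factors, 0.26 with the stricter filter and 0.13 without VC replicate 3.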
